A study of Mus musculus with 38 samples.

Results

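The 17 mutant libraries of a bulk RNA sequencing study of mouse medial prefrontal cortex did not share 1 level of Pttg1. The value of Pttg1 in CPM (the count of a gene multiplied by 1000000 and divided by the total count of its library) divided them into 11 libraries under 1 CPM, called low here, 5 libraries between 5 and 12 CPM, called intermediate, and 1 library above 12 CPM. The 21 control libraries of the series, 38 libraries in all, are given beside them. Mutant mice were SSTCre:γ2f/f, which carry Cre recombinase under the somatostatin promoter and a conditional (floxed) allele that this Cre acts on in somatostatin neurons. Control mice were SSTCre, so mutants and controls all carry the Cre. Mice of both genotypes and both sexes were either left unstressed (NS) or given 21 days of chronic variable stress (CVS), and the tissue was taken 24 hours after the last stressor. The sources used here give neither age nor background strain. The split addresses whether a chromosome segment that travels with the conditional allele is present in 1 or in 2 copies in a given mutant mouse. The labels give no genotype of flanking markers, so levels of RNA alone cannot decide it. The members of each set were chosen by the Pttg1 CPM measured in these same libraries, so the values of Pttg1 are a description and carry no test.

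Pttg1 encodes securin, which holds separase inactive until the anaphase-promoting complex marks securin for destruction and sister chromatids part. Its gene lies on mouse chromosome 11 close to a cluster of GABA-A receptor genes, among them Gabra6 (the α6 subunit) and Gabrb2 (β2). GABA-A receptors are chloride channels opened by GABA. A gene-targeted allele made in one mouse strain and bred into another keeps a stretch of the donor strain's chromosome around it, and genes in such a stretch can differ in expression between strains without any effect of the allele itself.

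Pttg1 (ENSMUSG00000020415) stood at 9.60 and 10.8 CPM in the intermediate male libraries mutant NS replicate 1 and mutant CVS replicate 2. In the intermediate female libraries it stood at 10.1 CPM in mutant NS replicate 1, 8.39 CPM in mutant NS replicate 5 and 7.58 CPM in mutant CVS replicate 5. These 5 values rest on 152 to 235 counts a library. The highest of them, male mutant CVS replicate 2, had an exact 95% Poisson interval of 9.44 to 12.2 CPM, which crosses the bound of 12 CPM. In the 11 low libraries it ranged from 0.0486 to 0.383 CPM with a median of 0.148 CPM, which rests on 1 to 7 counts a library. In the library above the bound, male mutant CVS replicate 1, it stood at 19.6 CPM (exact 95% Poisson interval 17.7 to 21.7 CPM, counting error only). The 21 controls ranged from 15.6 to 21.6 CPM with a median of 18.5 CPM. The mutant levels left 2 gaps: no mutant library lay between 0.383 and 7.58 CPM or between 10.8 and 19.6 CPM, and the single library above 12 CPM lay within the control range. The mean was 9.29 ± 1.30 CPM in the intermediate set (SD, n = 5), 0.198 ± 0.122 CPM in the low set (SD, n = 11) and 18.7 ± 1.32 CPM in controls (SD, n = 21).

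**Figure D1:**
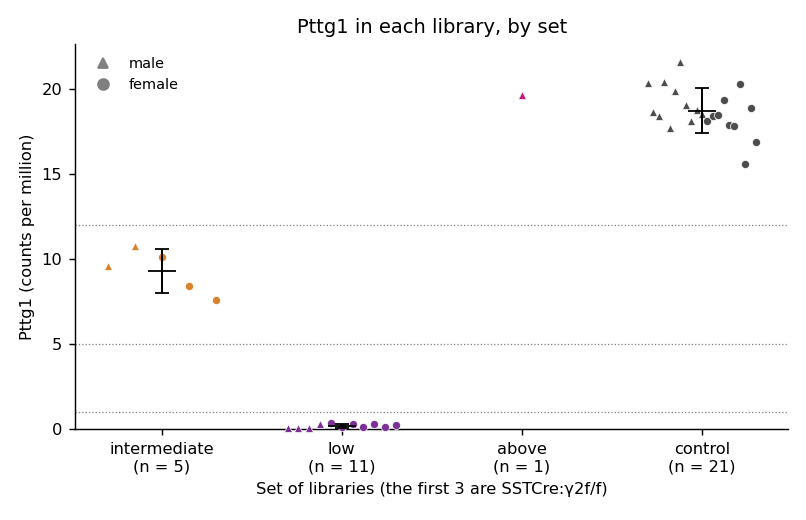
Pttg1 in CPM (vertical axis) in each of the 38 libraries, by set. Triangles are male and circles female libraries, bars are mean ± SD, and dotted lines mark the bounds of 1, 5 and 12 CPM that define the sets. The mutant libraries leave gaps from 0.383 to 7.58 CPM and from 10.8 to 19.6 CPM.

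Both sexes and both stress conditions held libraries of each set. The intermediate set had 2 male and 3 female libraries, against 4 male and 7 female in the low set (two-sided Fisher's exact test, p = 1). By stress the intermediate set had 2 CVS and 3 NS libraries, against 6 CVS and 5 NS in the low set (exact p = 1). The total count was 18.2 to 24.7 M in the intermediate set, 18.3 to 27.5 M in the low set, 19.2 M in the library above the bound and 17.6 to 25.1 M in controls. Male and female animals are named in separate series, so sex may also stand for a cohort. The share of mitochondrial counts was 3.40% to 5.98% in the intermediate set and 3.30% to 6.22% in the low set. It divided by sex: 5.13% to 6.22% in low males and 3.30% to 3.95% in low females. In the intermediate set it was 5.95% to 5.98% in males and 3.40% to 3.66% in females. The ID with the highest total count held 4.41% to 6.85% of counts in low female libraries. In low male libraries it held 0.0654% to 0.0879%. The cause was not tested. Cdhr1 encodes a cadherin of olfactory bulb neurons. It was at no more than 4.99 CPM in the intermediate set, against 25.7 and 27.8 CPM in the low libraries male mutant NS replicates 2 and 3. Its part in the comparisons was not tested beyond leaving these libraries out. In bulk tissue, fewer cells of a type and less RNA per cell cannot be told apart.

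The intermediate set was compared with the low set across the whole transcriptome with edgeR's quasi-likelihood test, with sex and stress as covariates and Pttg1 left out of the adjustment. Fold changes are log2 of intermediate over low, given with their standard error. Of 16922 genes tested, 0 passed a Benjamini-Hochberg adjusted p of 0.05 (0% called), 824 had an unadjusted p under 0.05 (4.87%, of which 400 were positive, 2.36%, and 424 negative, 2.51%), DESeq2 called 1 gene and limma voom 0. The median log2 fold change over all genes was −0.0028. None of the tested genes, which leave out Pttg1, thus separated the sets past the threshold by edgeR. The gene DESeq2 called, and the one with the smallest p by edgeR, was Gm12663.

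The genes with the smallest p values were often on the chromosome of Pttg1. Chromosome 11 held 7.59% of the tested genes, and it held 6 of the 10 smallest p values, 6 of the 25 smallest and 11 of the 100 smallest. These 6 were Gm12663, Mybbp1a, Kcnab3, Ublcp1, Thg1l and Lsm11. Ublcp1, Thg1l and Lsm11 lie close together, 8, 13 and 12 tested genes after Pttg1, on the side away from the receptor genes. Gm12663 lies 108 tested genes before it. Mybbp1a and Kcnab3 lie 367 and 281 tested genes after it.

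Gm12663 (ENSMUSG00000101316), annotated as a processed pseudogene, was nearly absent from controls and present in all mutants but 1. It stood at 2.15 and 1.15 CPM in the intermediate male libraries and at 1.49, 1.50 and 1.40 CPM in the intermediate female libraries. In the low set it ranged from 2.10 to 3.30 CPM with a median of 2.82 CPM. In the library above the bound it had 0 counts, which allows up to 0.156 CPM at 3 counts. Controls ranged from 0 to 0.415 CPM, and 9 of 21 were at 0. Thus 4 of 5 intermediate libraries lay below every low library, and 1, male mutant NS replicate 1, lay within the low range. The mean was 1.54 ± 0.372 CPM in the intermediate set (SD, n = 5), 2.74 ± 0.389 CPM in the low set (SD, n = 11) and 0.0629 ± 0.0948 CPM in controls (SD, n = 21). The log2 fold change of intermediate over low was −0.88 ± 0.158, with an unadjusted p of 4.39e-06 and an edgeR adjusted p of 0.0744. With Pttg1 kept among the tested genes the adjusted p was 0.0372. Pttg1 chose the sets, so its own p was fixed in advance and this value is no support. With DESeq2 the adjusted p was 0.00303, without male mutant NS replicate 1 it was 0.0261, and over all alternatives it ran from 0.00148 to 1.00. The call is therefore decided by the setting, and 1 library moves it.

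Ublcp1 (ENSMUSG00000041231) encodes a nuclear phosphatase with a ubiquitin-like domain that acts on the proteasome. It was lower in mutants than in controls, and the intermediate libraries lay between the low ones and the controls. It stood at 30.9 and 29.0 CPM in the intermediate male libraries and at 29.9, 30.2 and 31.3 CPM in the intermediate female libraries. In the low set it ranged from 22.9 to 29.5 CPM with a median of 25.8 CPM. In the library above the bound it stood at 35.2 CPM, and controls ranged from 31.8 to 42.5 CPM with a median of 35.6 CPM. Here 4 of 5 intermediate libraries lay above every low library, all 16 libraries of both sets lay below every control, and the library above the bound lay within the control range. As background, the CPM ranges of the intermediate set and controls did not overlap in 7 of 17402 genes (0.0402%), 5 of them higher (0.0287%) and 2 lower (0.0115%). Those of the low set and controls did not overlap in 3 (0.0172%), 1 higher (0.00575%) and 2 lower (0.0115%). The log2 fold change of intermediate over low was 0.23 ± 0.0517 (unadjusted p 1.23e-04, edgeR adjusted p 0.520, not passed).

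Gm12663 is a copy of the coding sequence of Ublcp1 elsewhere on the same chromosome, so the 2 genes are not independent measurements. The reference coding sequence of Ublcp1 with its stop codon has 957 bases in 10 coding exons and Gm12663 has 958 bases, and 99.37% of the aligned positions were identical. Counted from the A of the start codon of Ublcp1, the copy differs by 5 substitutions, A123G, T431G, C481T, A583C and A932G, and by 1 T inserted after position 492. Coding exon 5, the exon that holds both the third substitution and the inserted base, is printed to show how few bases tell reads of the copy from reads of the gene. Capitals mark the bases that differ. Both are from GENCODE vM21 (GRCm38, minus strand), Ublcp1 at chr11:44463658-44463756 and Gm12663 at chr11:16635519-16635618, while the counts were made on GRCm39.
Ublcp1: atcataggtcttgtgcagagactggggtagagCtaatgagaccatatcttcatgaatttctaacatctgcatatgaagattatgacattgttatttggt
Gm12663: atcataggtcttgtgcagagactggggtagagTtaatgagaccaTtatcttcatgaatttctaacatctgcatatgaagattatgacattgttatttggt

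Counting could have divided reads between the copy and the gene, and each value carries that uncertainty. The sum of both was therefore taken per library. It averaged 31.8 ± 1.15 CPM in the intermediate set (SD, n = 5, range 30.1 to 33.0), 28.5 ± 1.79 CPM in the low set (SD, n = 11, range 25.7 to 32.7) and 35.4 ± 2.30 CPM in controls (SD, n = 21, range 31.9 to 42.6). The library above the bound stood at 35.2 CPM. The order of the sets was the same for the sum as for Ublcp1 alone, and the ranges of the intermediate and the low set overlapped more.

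Thg1l (ENSMUSG00000011254) encodes the enzyme that adds a guanosine to the 5′ end of histidine tRNA. Its order among the sets was the opposite of that of Ublcp1. It stood at 8.05 and 7.19 CPM in the intermediate male libraries and at 7.87, 7.05 and 6.53 CPM in the intermediate female libraries. In the low set it ranged from 7.94 to 11.6 CPM with a median of 9.40 CPM. In the library above the bound it stood at 5.40 CPM, and controls ranged from 4.77 to 9.06 CPM with a median of 6.18 CPM. In all, 4 of 5 intermediate libraries lay below every low library and all 5 lay within the control range, as did 3 of 11 low libraries. The log2 fold change of intermediate over low was −0.38 ± 0.0906 (unadjusted p 2.07e-04, edgeR adjusted p 0.699, not passed).

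Lsm11 (ENSMUSG00000044847), a component of the U7 small nuclear ribonucleoprotein that processes histone mRNA, overlapped more. It stood at 40.5 and 32.8 CPM in the intermediate male libraries and at 39.1, 39.1 and 38.5 CPM in the intermediate female libraries. In the low set it ranged from 36.1 to 52.5 CPM with a median of 43.2 CPM, in the library above the bound it was 33.5 CPM, and controls ranged from 31.7 to 44.9 CPM with a median of 38.8 CPM. Of the intermediate libraries, 4 of 5 lay within the low range and all 5 within the control range. The log2 fold change of intermediate over low was −0.22 ± 0.0559 (unadjusted p 5.10e-04, edgeR adjusted p 0.841, not passed).

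The 2 more distant genes of the chromosome overlapped as well when the sexes were pooled. Kcnab3, a β subunit of voltage-gated potassium channels, averaged 22.2 ± 2.698 CPM in the intermediate set (SD, n = 5) and 28.2 ± 5.83 CPM in the low set (SD, n = 11), against 29.3 ± 5.94 CPM in controls (SD, n = 21). Mybbp1a, a nucleolar protein that binds Myb, averaged 38.2 ± 3.83 CPM in the intermediate set (SD, n = 5) and 44.6 ± 6.44 CPM in the low set (SD, n = 11), against 42.4 ± 4.39 CPM in controls (SD, n = 21). Of the 5 intermediate libraries, 3 for Kcnab3 and 2 for Mybbp1a lay below every low library. Within each sex Kcnab3 did not overlap. Its intermediate and low ranges were 24.4 to 25.5 and 30.7 to 41.9 CPM in males. In females they were 19.6 to 21.9 and 22.1 to 27.5 CPM. The ranges of Mybbp1a did not overlap in males (40.0 to 43.8 and 49.0 to 54.6 CPM). In females they did (33.96 to 37.33 and 37.25 to 43.37 CPM). The male sets held 2 and 4 libraries, a size at which ranges can easily fail to overlap. The share of all tested genes whose ranges do not overlap within a sex was not counted. Kcnab3 and Mybbp1a were chosen by small p in these same libraries. By the pooled means, the low set lay nearer to the controls than the intermediate set did in both genes. In Ublcp1, Thg1l and Lsm11 the intermediate set was nearer. In males alone Mybbp1a averaged 41.9 CPM in the intermediate set, 52.1 CPM in the low set and 45.2 CPM in controls. Neither passed (edgeR adjusted p 0.463 each).

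**Figure D2:**
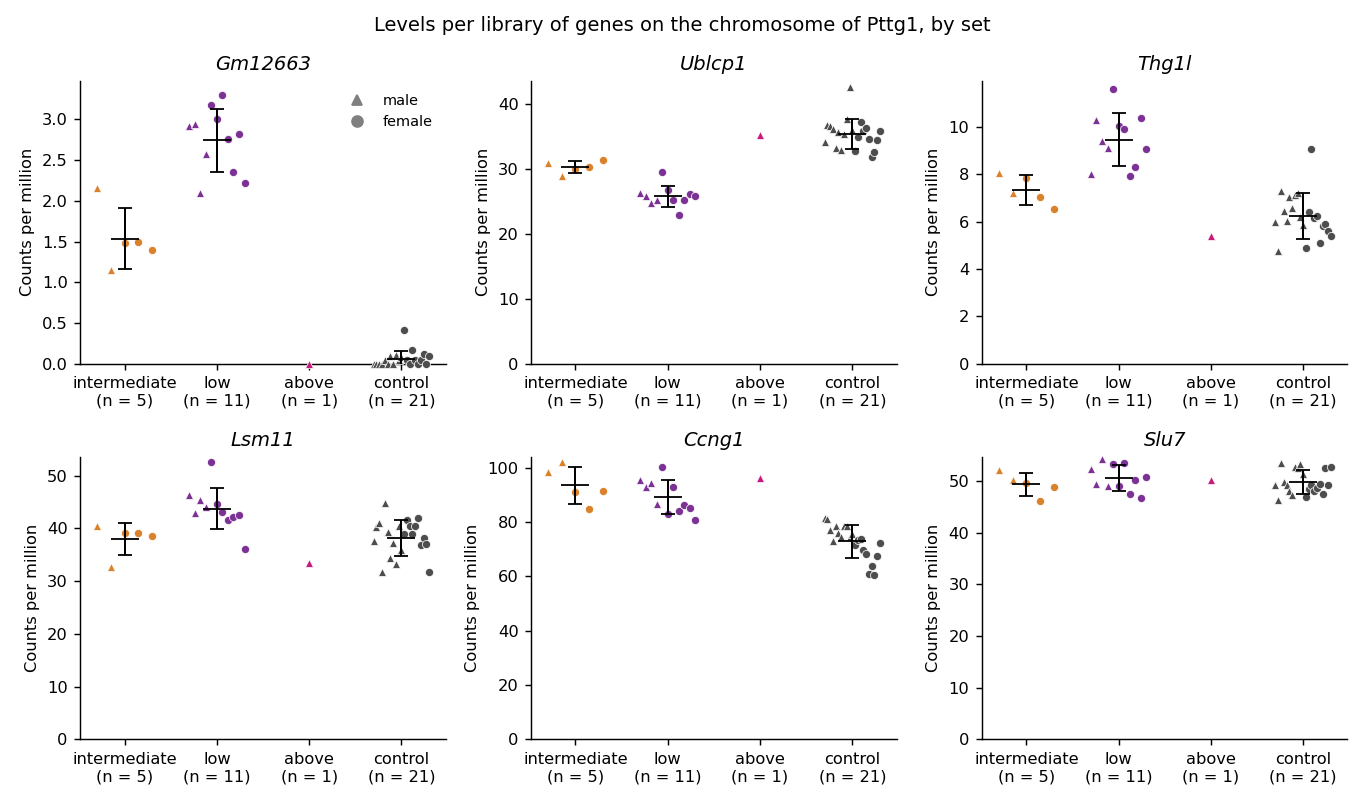
CPM (vertical axes, from 0) of 6 genes of chromosome 11 in each library, by set. Triangles are male and circles female libraries, and bars are mean ± SD. The intermediate libraries lie mostly between the low libraries and the controls for Gm12663 and Ublcp1. For Thg1l all 5 lie within the control range and 4 of them below every low library. Both mutant sets lie above most controls for Ccng1, and the sets overlap for Slu7.

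The rest of the neighbourhood did not pass. Among the 50 nearest tested genes, 25 on each side of Pttg1, 0 passed and 6 had an unadjusted p under 0.05 (12%, against 4.87% of all genes). The median log2 fold change of the 50 was −0.01, against −0.0028 over all genes, and 22 were positive and 28 negative. With the sexes pooled, in 0 of the 50 did the CPM ranges of the sets fail to overlap. Within each sex the ranges of Ublcp1 did not overlap. Its intermediate and low ranges were 29.0 to 30.9 and 24.7 to 26.2 CPM in males. In females they were 29.9 to 31.3 and 22.9 to 29.5 CPM. The share of all tested genes for which this holds was not counted, and Ublcp1 was chosen by small p. The 6 with an unadjusted p under 0.05 were Ublcp1 and Fbxw11 (positive) and Thg1l, Lsm11, Adam19 and Med7 (negative). Of a hand-written list of 53 genes around Pttg1, 42 besides Pttg1 were tested, 0 passed and 6 had an unadjusted p under 0.05.

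The immediate neighbours of Pttg1 did not separate. Slu7, a splicing factor and the next tested gene after Pttg1, averaged 49.4 ± 2.22 CPM in the intermediate set (SD, n = 5) and 50.5 ± 2.54 CPM in the low set (SD, n = 11), a log2 difference of −0.04 ± 0.0439. Atp10b, a lipid flippase and the nearest tested gene on the other side, averaged 0.533 ± 0.185 CPM in the intermediate set (SD, n = 5) and 0.535 ± 0.226 CPM in the low set (SD, n = 11), and its log2 difference was −0.0021 ± 0.342. The log2 difference of Gabrb2, a receptor subunit gene, was −0.04 ± 0.0860. Gabra6, an α subunit best known from cerebellar granule cells, stood at or under 2.58 CPM in both sets. Its highest value was that of the low library male mutant NS replicate 2. Its log2 difference was −1.01 ± 0.916.

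Ccng1 (ENSMUSG00000020326), a cyclin induced by p53, lies 6 tested genes before Pttg1, on the side of the receptor genes. It separated mutants from controls and not the sets from each other. It stood at 98.5 and 102 CPM in the intermediate male libraries and at 91.2, 84.7 and 91.3 CPM in the intermediate female libraries. In the low set it ranged from 80.7 to 100.4 CPM with a median of 86.7 CPM. In the library above the bound it stood at 96.1 CPM, and controls ranged from 60.6 to 81.5 CPM with a median of 73.8 CPM. Of the 17 mutant libraries, 16 lay above every control, among them the library above the bound. The log2 fold change of intermediate over low was 0.06 ± 0.0438 (edgeR adjusted p 0.994).

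The library above the bound lay outside the ranges of both sets for Gm12663, Ublcp1 and Thg1l, and for Pttg1, which chose it. For Lsm11 it lay within the intermediate range and below the low range, and for Ccng1 within the ranges of both sets. Its levels of Pttg1, Gm12663, Ublcp1, Thg1l and Lsm11 lay within the control range, as did those of all 5 intermediate libraries for Thg1l and Lsm11, and its level of Ccng1 lay above all controls. It is 1 library, so its values have no replicate check.

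Both sets were also set against the controls in 1 fit over 37 libraries, with the 4 combinations of sex and stress as terms. Intermediate over control gave 24 genes past the threshold of 17402 tested (0.138%), 12 higher and 12 lower (0.069% each). Low over control gave 56 genes (0.322%), 18 higher (0.103%) and 38 lower (0.218%). The sets differ in size, 5 against 11 libraries, and the comparisons share their controls, so their counts say nothing about which set differs more. Chromosome 11 held 7.49% of the tested genes, 9 of the 24 genes called in the intermediate set and 10 of the 56 called in the low set. Leaving out an intermediate library moved the 24 to 8 (without male mutant NS replicate 1 or without male mutant CVS replicate 2), 3 (without female mutant NS replicate 1 or 5) or 15 (without female mutant CVS replicate 5). Leaving out the 3 libraries with Cdhr1 above 10 CPM moved the 56 to 24.

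The named neighbours were as follows in that fit. Gm12663 rose in both sets, by 4.48 ± 0.324 in intermediate over control (edgeR adjusted p 1.89e-14) and by 5.35 ± 0.256 in low over control (adjusted p 4.28e-22). Ublcp1 fell in both, by 0.24 on the log2 scale (SE 0.0475, edgeR adjusted p 0.0247) in intermediate over control and by 0.46 (SE 0.0361, adjusted p 1.83e-13) in low over control. The first of these calls held in 1 of 5 runs that left out an intermediate library, the one without female mutant CVS replicate 5, with adjusted p from 0.0175 to 0.124, and in neither sex alone. Thg1l rose in low over control, by 0.60 ± 0.0671 (edgeR adjusted p 2.21e-08), and its intermediate over control value was 0.21 ± 0.0910 (adjusted p 0.527). Lsm11 rose in low over control, by 0.18 ± 0.0413 (edgeR adjusted p 0.0202, from 1.92e-04 to 0.267 over the alternatives), and its intermediate over control value was −0.03 ± 0.0558. Ccng1 rose in both sets, by 0.36 ± 0.0377 in intermediate over control (edgeR adjusted p 4.85e-09) and by 0.31 ± 0.0288 in low over control (adjusted p 8.49e-11). The test of Thg1l, Lsm11 and Ublcp1 between the sets is the intermediate over low fit above, which none of them passed.

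**Figure D3:**
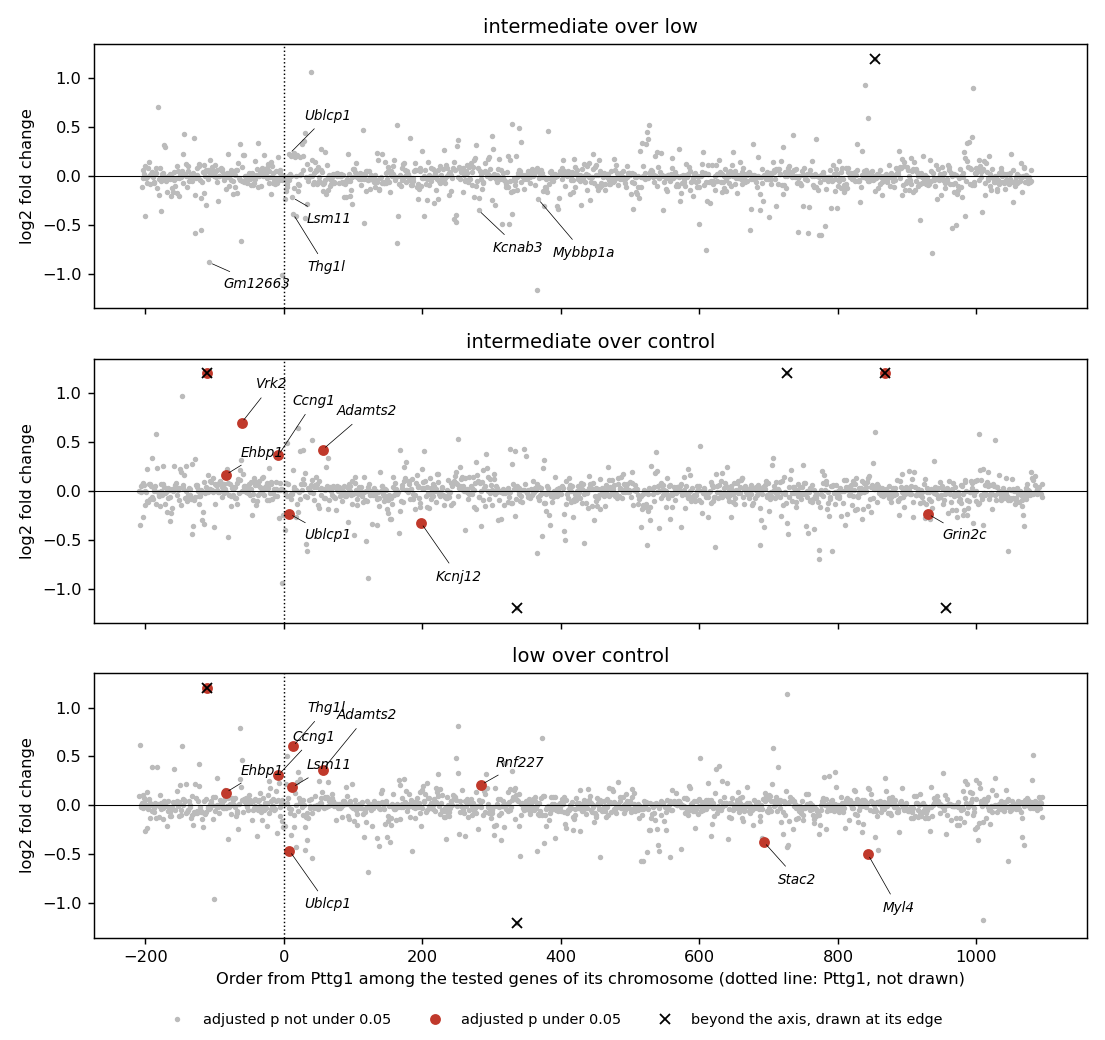
Log2 fold change (vertical axes) of each tested gene of chromosome 11 against its order from Pttg1 among the genes tested in that comparison (horizontal axis), for intermediate over low, intermediate over control and low over control. Red points passed an adjusted p of 0.05, crosses lie beyond the axis, the dotted line marks Pttg1, and the red points beyond the axis are Gm12663 on the left and, in intermediate over control, Gh on the right. No gene of intermediate over low passed.

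Rnf39, a RING finger protein, averaged 4.40 ± 0.455 CPM in the intermediate set (SD, n = 5), 5.04 ± 1.07 CPM in the low set (SD, n = 11) and 6.62 ± 1.09 CPM in controls (SD, n = 21). It fell in intermediate over control (edgeR adjusted p 0.0179) and in low over control (adjusted p 0.0112). The first call held in 2 of 5 runs that left out an intermediate library (adjusted p 0.0170 to 0.111), those without male mutant CVS replicate 2 and without female mutant CVS replicate 5, and in neither sex alone. The second held in 10 of 11 runs that left out a low library. It was lost without male mutant NS replicate 3 (adjusted p 0.0521), without the libraries with Cdhr1 above 10 CPM (adjusted p 0.272) and in either sex alone. The intermediate over low value of Rnf39 was −0.15 ± 0.124.

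To place the intermediate set between the low set and the controls, the share of the way from the low level to the control level was computed on the linear CPM scale, with 0% the low and 100% the control level. For Pttg1 it was 49.0%, a description only. It was 46.4% for Gm12663 (95% interval 37.8% to 55.1%) and 45.1% for Ublcp1 (24.0% to 66.2%), and both intervals hold 50%. The intervals assume the same spread in all sets. For Gm12663 the SD was 0.0948 CPM in controls against 0.372 and 0.389 CPM in the intermediate and low sets. Its interval is therefore too narrow. It was 69.6% for Thg1l (42.3% to 96.9%), 112% for Lsm11 (51.2% to 172%) and −18.0% for Ccng1 (−45.7% to 9.67%). The interval of Ccng1 holds 0% and not 50%, and that of Lsm11 holds 100% and lies just above 50%. Gm12663, Ublcp1, Thg1l and Lsm11 were among the genes with the smallest p values between the sets, which favours shares away from 0%, so their shares are a description of these libraries.

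By library, against the low and control means of its own sex, the shares of Pttg1 were 49.7% and 55.8% in the intermediate male libraries and 55.2%, 45.5% and 40.9% in the intermediate female libraries. Those of Gm12663 were 18.6% and 57.3% in the male libraries and 48.7%, 48.2% and 52.0% in the female libraries. The lowest of these, male mutant NS replicate 1, had a share of 50.7% for Ublcp1 and 41.3% for Thg1l. The shares of Ublcp1 ran from 32.6% to 61.9% and those of Thg1l from 41.3% to 86.7% over the 5 libraries.

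**Figure D4:**
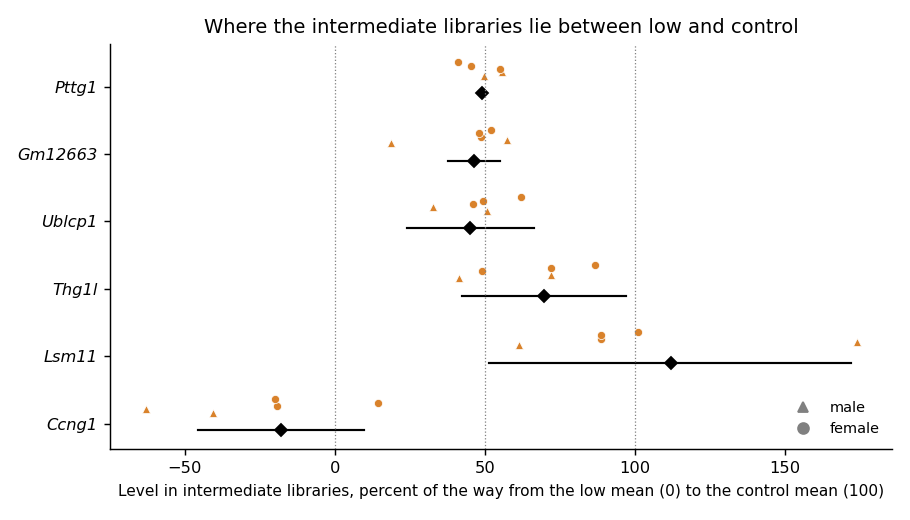
Share of the way from the low to the control level on the linear CPM scale (horizontal axis, in percent) for 6 genes of chromosome 11. Orange points are the 5 intermediate libraries against the means of their own sex (triangles male, circles female), black diamonds the fitted share and black lines its 95% interval (none for Pttg1, which chose the sets); Gm12663 and Ublcp1 lie near 50% and Ccng1 near 0%.

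On the log2 scale, the distance of the intermediate set from the midpoint of the low and control levels passed for 3 genes (0.0172% of 17402). These were Gm12663 (1.80 ± 0.263, edgeR adjusted p 1.80e-04), Gh (5.15 ± 0.791, adjusted p 0.00247) and Ccng1 (0.21 ± 0.0368, adjusted p 0.00424). The call of Ccng1 held in 3 of 5 runs that left out an intermediate library and was lost without male mutant CVS replicate 2 (adjusted p 0.202) and without female mutant CVS replicate 5 (adjusted p 0.197), while that of Gm12663 held in all 5. For a gene near 0 in controls, the log2 midpoint lies far below the mean of the levels, so for Gm12663 the linear share and the log2 distance measure different things. Ublcp1, Thg1l and Lsm11 did not pass (0 of 3 alternative settings and 0 of 5 leave-out runs called each). Gh, the gene of growth hormone, rests on a few libraries: it stood at 22.0 and 3.00 CPM in the intermediate male libraries and at no more than 0.981 CPM in any other library.

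For the leading genes the difference between the sets had the same direction in both sexes. They were chosen by small p with these same libraries pooled, which favours such agreement, so it is a description only. In males alone the log2 fold change was −0.71 ± 0.288 for Gm12663, 0.23 ± 0.0929 for Ublcp1, −0.27 ± 0.158 for Thg1l and −0.29 ± 0.0923 for Lsm11. In females alone it was −0.99 ± 0.205 for Gm12663, 0.23 ± 0.0710 for Ublcp1, −0.47 ± 0.117 for Thg1l and −0.17 ± 0.0709 for Lsm11. None of these passed within a sex. The term of set by sex called 1 of 17314 genes by edgeR (0.00578%), Serpina3n, and the term of set by stress called 0 (0%), with 1218 at an unadjusted p under 0.05 (7.03%), and 2 by DESeq2.

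With the sexes pooled, the CPM ranges of the sets did not overlap in 4 of 16922 genes (0.0236%). Of the 4, 2 were higher and 2 lower in the intermediate set (0.0118% each). They were singled out by that rule after their values were seen. Mthfd2, a mitochondrial folate enzyme, ranged from 6.16 to 6.49 CPM in the intermediate set and from 2.24 to 6.12 CPM in the low set, against 3.43 to 7.20 CPM in controls. Cyb5b, an outer mitochondrial cytochrome, ranged from 187 to 199 CPM in the intermediate set and from 168 to 186 CPM in the low set. Mrpl28, a mitochondrial ribosomal protein, ranged from 31.1 to 33.2 CPM in the intermediate set and from 33.3 to 41.7 CPM in the low set. Ndufab1, the acyl carrier protein of mitochondria, ranged from 50.7 to 56.8 CPM in the intermediate set and from 57.0 to 67.2 CPM in the low set. None of the 4 passed, none is on chromosome 11, and for each the intermediate range lay wholly or partly within the control range. The other leading genes with positive values were Ncl, the nucleolar protein nucleolin (0.18 ± 0.0433), and the predicted gene Gm21986 (1.77 ± 0.435, at no more than 0.650 CPM in any library of the 2 sets), and neither passed (edgeR adjusted p 0.750 each).

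The genes that work with securin did not separate the sets. Of 31 tested genes of the anaphase-promoting complex, cohesin and the spindle checkpoint, 0 passed and the median log2 fold change was −0.01. An unadjusted p under 0.05 was reached by 1 (3.23%, against 4.87% of all genes). That gene was Bub1b, a checkpoint kinase, at 1.70 ± 0.298 CPM in the intermediate set (SD, n = 5), 2.53 ± 1.15 CPM in the low set (SD, n = 11) and 1.60 ± 0.795 CPM in controls (SD, n = 21). Of 25 p53 target genes 0 passed and 2 had an unadjusted p under 0.05 (8%, against 4.87% of all genes). These were Plk3 (−0.29 ± 0.0930), a stress-activated kinase, and Sesn2 (0.21 ± 0.0821), an inhibitor of growth signalling.

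Inhibitory synapse genes did not separate the sets. Of 14 tested GABA-A receptor subunits and of 14 genes of the inhibitory postsynapse, 0 passed and 0 had an unadjusted p under 0.05 in either list, with median log2 fold changes of 0.025 and 0.0016. Of 15 somatostatin interneuron genes 0 passed, 9 were negative and 6 positive, with log2 fold changes from −0.159 to 0.374. An unadjusted p under 0.05 was reached by 3, all negative (20%). Of all genes 4.87% had such a p, 2.51% as negative values. The 3 were Npy (−0.13 ± 0.0503), Sst (−0.11 ± 0.0430) and Pdyn (−0.16 ± 0.0690), which encode neuropeptides. Sst averaged 135 ± 13.4 CPM in the intermediate set (SD, n = 5), 145 ± 11.2 CPM in the low set (SD, n = 11) and 124 ± 8.58 CPM in controls (SD, n = 21). It rose in low over control (0.22 ± 0.0354, edgeR adjusted p 3.92e-04), its intermediate over control value was 0.12 ± 0.0472 (adjusted p 0.458), and between the sets it did not pass (adjusted p 0.994). Of 13 other interneuron genes 0 passed, 11 were negative and 3 had an unadjusted p under 0.05 (23.1%, against 4.87% of all genes). These were Gad1 (−0.12 ± 0.0388), a GABA-synthesising enzyme, Kcnc1 (−0.09 ± 0.0344), a potassium channel of fast-spiking cells, and Pvalb (−0.27 ± 0.115), the calcium-binding protein parvalbumin.

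Genes that follow neuronal activity or stress did not pass either. Of 27 immediate early genes 22 were negative, with a median of −0.13 and 0 with an unadjusted p under 0.05. Fos ranged from 9.02 to 33.5 CPM in the intermediate set and from 8.41 to 33.0 CPM in the low set, so the sets overlapped almost wholly. Penk, the enkephalin precursor, averaged 28.1 ± 2.88 CPM in the intermediate set (SD, n = 5) and 30.0 ± 3.47 CPM in the low set (SD, n = 11). Of 16 glucocorticoid-responsive genes 13 were positive, with a median of 0.06, and 1 had an unadjusted p under 0.05 (6.25%, against 4.87% of all genes). That gene was Tsc22d3 (0.25 ± 0.0861), a steroid-induced leucine zipper protein. Of 18 circadian clock genes 12 were positive, with a median of 0.03, and 1 had an unadjusted p under 0.05 (5.56%), the repressor Bhlhe41 (0.12 ± 0.0560).

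Markers of other cell types that the dissection could hold showed no member past the threshold between the sets. At an unadjusted p under 0.05 stood 2 of 10 astrocyte genes (20%), 1 of 7 genes of oligodendrocyte precursors (14.3%) and 1 of 10 endothelial genes (10%). So did 1 of 2 tested choroid plexus genes (50%), against 4.87% of all genes. In myelin (12 genes), microglia (11), meningeal fibroblasts (7), blood (5), olfactory bulb (5) and striatum (8) there were 0. Summed CPM of the astrocyte list ranged from 5015 to 5615 in the intermediate set and from 4668 to 5574 in the low set, and that of the endothelial list from 192 to 406 in the intermediate set and from 250 to 422 in the low set. That of the choroid plexus list ranged from 3.32 to 10.01 in the intermediate set and from 2.02 to 4.94 in the low set. None of its 6 genes was at 0 in all libraries of either set. Among them, Ttr had a highest value of 5.40 CPM and a median of 0.199 CPM in the intermediate set. The largest difference by p in these lists was Kdr, a receptor of vascular endothelial growth factor, at 10.2 ± 4.74 CPM in the intermediate set (SD, n = 5) and 12.4 ± 4.76 CPM in the low set (SD, n = 11), with a log2 fold change of −0.37 ± 0.0986 (edgeR adjusted p 0.841).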

How the data were processed

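The series holds 38 libraries, of which 16 mutant libraries entered the comparison of the sets and 37 the fit with controls. Per the labels, mRNA from 400 ng of total RNA was made into directional libraries and sequenced as 150-bp paired reads with 20 M planned a sample. The submitters' processing notes list fastp 0.23.2, STAR 2.7.10b, featureCounts and the build GRCm39. The values the authors deposited are unnormalized whole-number counts, 1 column a library. The sources used here give neither the strand setting nor the handling of reads that map to several places.

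Pttg1 CPM came from the raw totals, which set the sets. Genes were kept by filterByExpr (minimum count 10, minimum total count 15), normalized by TMM and tested with the robust quasi-likelihood test of edgeR 4.0.16 in R 4.3.3, with Benjamini-Hochberg adjustment over all tested genes but Pttg1 and a threshold of 0.05. The first run kept Pttg1 in the adjustment and called 1 gene, Gm12663; the written design tests only other genes, so Pttg1 was taken out. Alternatives used DESeq2 1.42.0, limma 3.58.1, other covariates, each sex alone and left-out libraries. The share of the way came from a least squares fit of CPM with the same terms, with a delta-method interval at 95%. That fit assumes the same spread in all sets. Poisson intervals and floors (3 counts) cover counting error only. Symbols matched 52029 of 57010 IDs in GENCODE vM21 (GRCm38), which gave gene order and the printed sequences but no coordinate of a count. Sequences were aligned with Biopython 1.88, and figures drawn with Python 3.11.15 and matplotlib 3.10.9. The test was checked on simulated data. Of 29 pairs of mutant libraries of the same group, 0 were identical and the chi-square per degree of freedom was 3.914 to 11.06. Nothing in the labels says more of how replicates were obtained than that each is a separate animal.

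The targeted gene is not reported here, so its level gives no check of the genotype labels. Named were 3 genes in each direction by smallest p, a fixed set, the neighbours of Pttg1 and up to 4 members of each list. The sets, lists and alternatives were chosen with earlier results of these data known, and the lists give no independent support. For some genes of low count or with a high count in 1 library, such as Gm12663 and Gh, the libraries are given. For others, such as Gm21986, Atp10b and Bub1b, only means or bounds are given.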

Additional observations from a re-analysis of the deposited data

Results flagged for a closer look

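Within the intermediate set, 21 genes were checked for a library far from the other 4, and 3 had one. The cutoff flags about 1 in 20 groups of normal values, and levels near 0, as for Gabra6 and Gh, need not be normal. Gh and Serpina3n, each called in a comparison here, were added to the 21 by name. The 3 are therefore a description and are not set against chance. For Gabra6, male mutant NS replicate 1 stood at 0.850 CPM, against 0.0405 to 0.165 CPM in the other 4. For Lsm11, male mutant CVS replicate 2 stood at 32.8 CPM, against 38.5 to 40.5 CPM in the other 4. For Gh, male mutant CVS replicate 2 stood at 22.0 CPM, against 0 to 3.00 CPM in the other 4.

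For Serpina3n, an acute-phase protease inhibitor, the difference between the sets was larger in males than in females, with a log2 fold difference of 1.02 ± 0.176 (male minus female, edgeR adjusted p 0.0421). In the intermediate set it stood at 23.3 and 13.1 CPM in the male libraries and at 9.35, 10.3 and 8.33 CPM in the female libraries, while the 11 low libraries ranged from 8.51 to 11.8 CPM. The value of 23.3 CPM is 1 library, male mutant NS replicate 1, and without it or without any of the 3 intermediate female libraries Serpina3n did not pass.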

How the results depend on the processing

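The limits are the sizes of the sets, 5 and 11 libraries, and the choice of leading genes from these same libraries. Without a filter on low counts the calls became 92 in intermediate over low, 294 in intermediate over control, 329 in low over control and 153 at the midpoint. Of the 92, 82 were among the genes tested with the filter. In intermediate over low the median prior degrees of freedom of edgeR were 18.0 with the filter and infinite without it. At an infinite value a gene's own spread between libraries does not enter its test. The prior of the other comparisons was not taken, and its part in the calls was not tested. DESeq2 called 1, 58 and 119 genes in the first 3 comparisons and 2 in each interaction term. Males alone gave 6, 4 and 21 and females alone 0, 9 and 13. Keeping Pttg1, which chose the sets, in the adjustment gave 1 gene in intermediate over low, and that call is no support. Leaving out the libraries with Cdhr1 above 10 CPM gave 24 in low over control. Leaving out 1 library at a time gave 0 to 1 calls in intermediate over low (1 without male mutant NS replicate 1), 3 to 15 in intermediate over control, 42 to 74 in low over control and 1 to 4 at the midpoint (1 without male mutant CVS replicate 2). It gave 0 to 9 for set by sex (9 without male mutant CVS replicate 2, 0 without female mutant NS replicate 1 or 5 or female mutant CVS replicate 5) and 0 to 4 for set by stress (4 without female mutant CVS replicate 5). Where no cause is named, the cause was not tested. Other scaling, voom, other covariates, the fit with controls and the added library above 12 CPM kept the counts within 1.5 times. Of 2182 values of named genes under alternatives, 76 changed sign, and 0 of these were called in either fit. The alternatives of the interaction terms, of Pttg1 in the adjustment and of Cdhr1 in the control comparisons were chosen after seeing the data. No paired analysis was possible because the labels number no replicate across groups.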

Other observations

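An ID without a symbol, ENSMUSG00000120928, was either high or near 0. It stood between 12.7 and 18.5 CPM in 5 of 11 low libraries, male mutant NS replicates 2 and 3, male mutant CVS replicate 3, female mutant NS replicate 2 and female mutant CVS replicate 1. It was at 11.3 CPM in 1 of 21 controls, male control NS replicate 4, and at no more than 0.385 CPM in every other library, all 5 intermediate ones included. In low over control it passed (log2 fold change 4.03 ± 0.768, edgeR adjusted p 0.00774), and in intermediate over low it did not (−4.93 ± 1.83, adjusted p 0.994). It was chosen after its values were seen.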
